A study of Mus musculus with 23 samples.

Results

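Small nucleolar and microRNA genes are among the shortest genes in the expression table of 23 primary mammary tumors from Brca1-deficient mice. They were taken by symbol: names that begin with Snora or Snord and a number, with Scarna, or with Mir and a number or Mirlet, with 4 names that end in hg left out because these are host transcripts. The rule found 150 of 14535 genes, namely 97 microRNA genes, 27 box C/D small nucleolar RNA (snoRNA) genes, 25 box H/ACA snoRNA genes and 1 small Cajal body RNA (scaRNA) gene. The question was in which tumors these genes had a value, how much of each tumor's summed signal they took, and whether they followed the genes that hold them.

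The labels place all 23 tumors in 1 group, Brca1-deficient, of mixed strain, and give no age and no further allele for any tumor. In the study, Cre under the MMTV promoter, which is active in mammary epithelium, deleted floxed Brca1, with or without 1 floxed Trp53 allele. There is no control tissue, and which tumor carried the Trp53 allele is not in the labels, so no comparison between genotypes was made. The titles hold 19 numbers, of which 4 name a pair of tumors each, and nothing in the labels says that tumors came from separate mice, so a p-value here speaks only of the spread among the 23 samples. Of 6 mammary epithelial marker genes, all were in the table. Krt8 and Krt18, keratins of luminal epithelium, and Krt14, a keratin of basal epithelium, were above 0 in every tumor. Epcam was 0 in X520T, Cdh1 was 0 in X9387T, and Krt5 was 0 in 8 tumors. The summed level of the 6 ran between 58.2 FPKM in X520T and 4531 FPKM in X370T. Values are log2(FPKM + 1), where FPKM is the number of fragments scaled to the length of the transcript and to the mapped total of the library. Neither counts nor depth can be had from them, and a 0 may be a failed estimate, so a gene is said to be listed at 0.

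Box C/D snoRNAs guide the methylation of ribosomal RNA riboses, box H/ACA snoRNAs guide the conversion of uridine to pseudouridine, and scaRNAs do the same on spliceosomal RNAs in Cajal bodies. In mammals most snoRNAs are cut out of introns of host genes, many of which encode ribosomal proteins and translation factors or, like the Snhg genes and Gas5, carry no conserved protein. MicroRNAs are cut by Drosha and Dicer from hairpins in longer transcripts, and bases 2 to 8 of the mature strand, the seed, pair with target messages. The mature forms are far shorter than a usual sequencing fragment. The libraries here were made from total RNA with the NEBNext Ultra kit, and the sources used here name neither a size selection for small RNA nor whether strand was kept.

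The symbols were placed on the GRCm38 build with the GENCODE M21 annotation, which held all 150, and RefSeq gave a length for all but Mir1957b. Sequences are shown for the members on which the results turn. The first are snoRNAs from GENCODE M21, with the box C letters TGATG and the box D letters CTGA in capitals. Snord2 lies on chromosome 16 (23108953 to 23109021, plus strand) in Eif4a2, Snord100 on chromosome 10 (23785750 to 23785823, minus strand) in Rps12, and Snord52 on chromosome 17 (34950952 to 34951017, minus strand).
Snord2: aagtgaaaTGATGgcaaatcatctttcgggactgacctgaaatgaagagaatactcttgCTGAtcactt
Snord100: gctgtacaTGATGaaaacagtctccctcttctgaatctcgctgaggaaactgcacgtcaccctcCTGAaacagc
Snord52: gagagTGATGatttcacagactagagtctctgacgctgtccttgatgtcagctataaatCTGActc
TGATG was sought in the first 25 bases and CTGA in the last 15 bases of the transcript strand. Of the 27 box C/D members, 23 held both (85.2%), and none of the 97 microRNA members did. Snord22, Snord57, Snord71 and Snord93 held CTGA but no TGATG in these windows. Of the 25 box H/ACA members, 20 held ACA 3 bases before the end (80%), the box that gives the class its name, again with none of the microRNA members. Snora65 on chromosome 2 (32963291 to 32963420, plus strand), in the ribosomal protein gene Rpl12, is an example, with ACA in capitals.
Snora65: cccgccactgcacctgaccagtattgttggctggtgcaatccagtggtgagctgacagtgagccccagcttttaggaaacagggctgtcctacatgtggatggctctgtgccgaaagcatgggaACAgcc

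Members were listed at 0 far more often than other genes. A member was above 0 in a median of 5 tumors, against 23 tumors for the 14385 other genes. In all, 67.0% of the members' values and 15.3% of the other genes' values were 0. Only 5 of 150 members (3.33%) were above 0 in every tumor, beside 63.3% of other genes. At the other end, 77 members (51.3%) were above 0 in 5 tumors or fewer, against 7.13% of other genes. The snoRNA and scaRNA members had a median of 6 tumors and the microRNA members a median of 5. The most frequent number was 3 tumors, with 28 members. Of 144 members with a mean of 1 FPKM or more, 142 had an SD of 1 or more on the log2 scale, while 22.7% of 11897 other genes at that level did. Among the 22 other genes whose longest transcript was under 300 bases, the median was 12 tumors, and 6 were above 0 in all 23.

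**Figure D1:**
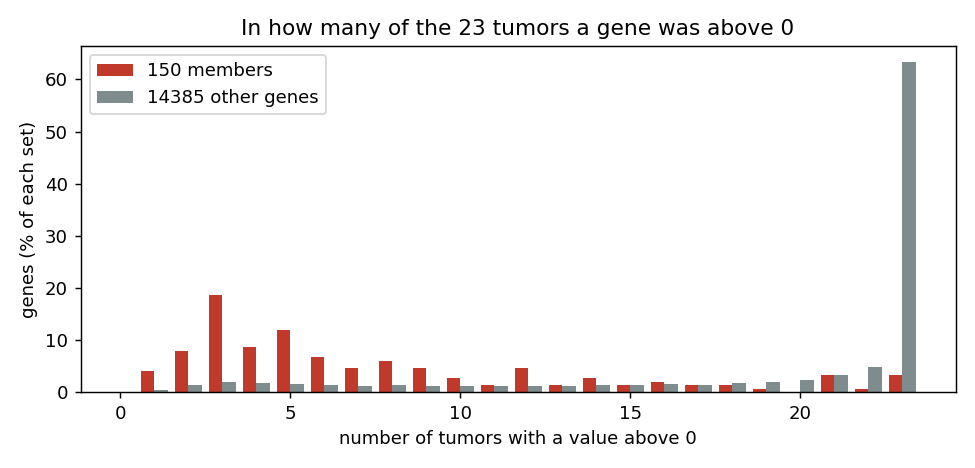
Percentage of genes (vertical axis) against the number of the 23 tumors in which a gene was above 0 (horizontal axis), for the 150 members and the 14385 other genes. The members peak at 3 tumors, with 28 of 150, and the other genes at 23 tumors.

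Where a member was above 0, its FPKM was mostly high, least so for the longest members. The lowest value above 0 of a member had a median of 6.57 on the log2 scale over members, against 1.25 over other genes. Only 0.616% of the members' values above 0 were under 1, against 10.5% of those of other genes. Most members thus went between 0 and a high FPKM with little in between. The heat map of all members shows this as separate coloured cells on a grey field, with a band of microRNA genes above 0 in nearly every tumor. The lowest value went with length, with a median of 9.51 for members of up to 64 bases and 1.34 for those of 140 or more. A high FPKM of so short a gene need not mean many fragments, whose number is not known here.

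**Figure D2:**
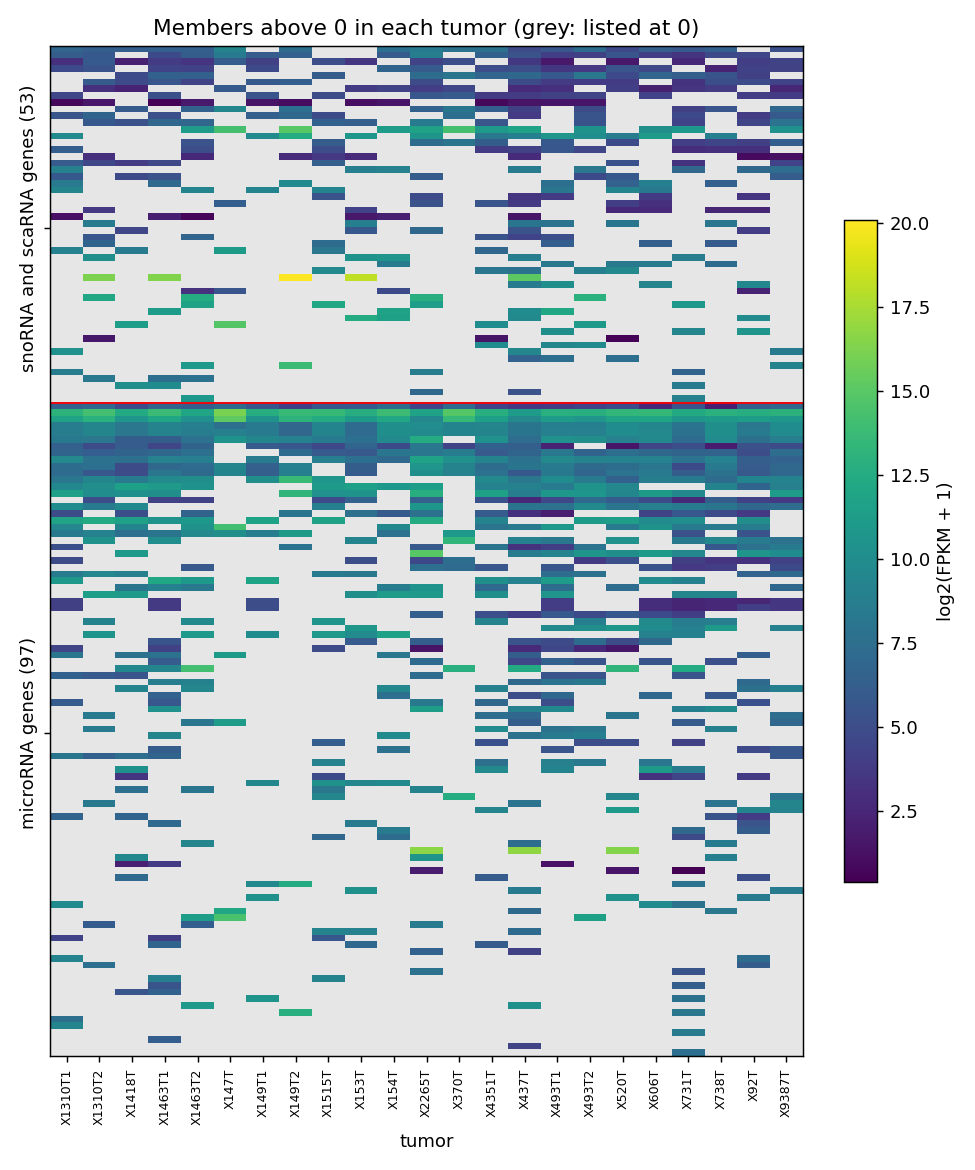
Level of each of the 150 members (rows, 53 snoRNA and scaRNA genes above the red line and 97 microRNA genes below, each sorted by the number of tumors above 0) in the 23 tumors (columns). Colour is log2(FPKM + 1) and grey marks a value of 0. Grey fills 67.0% of the cells, and 5 microRNA genes have no grey cell.

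The number of members above 0 ran between 24 in X147T and 74 in X437T, with a median of 52. X370T had 25, X149T2 29 and X149T1 30, and the other high tumors were X731T with 69 and X493T1 with 68. The number of other genes above 0 varied far less, between 11804 in X370T and 12794 in X731T. Both classes moved together: tumors with more snoRNA and scaRNA members above 0 (9 to 31 per tumor) had more microRNA members above 0 (14 to 49). The relation had Pearson r = 0.77 and Spearman rho = 0.70 over 23 tumors, with r = 0.69 without the 2 tumors farthest from the median. Its permutation p was 3.0e-05 for r and 0.00039 for rho, and 0.00039 and 0.0051 after Benjamini-Hochberg adjustment over 13 relations. None of the other 12 relations passed the adjusted threshold of 0.05 by permutation test, and 2 had an unadjusted p under 0.05 by r and 2 by rho. The number of members above 0 had r = 0.42 with the number of other genes above 0 (adjusted p = 0.17, two-sided permutation test), and r = 0.41 with the score of microRNA processing genes such as Drosha, Dgcr8 and Dicer1 (adjusted p = 0.17). The logarithm of the members' summed FPKM had r = 0.44 with the score of Snhg genes (adjusted p = 0.17). With the score of genes for the proteins of snoRNA particles, such as Fbl, the methyltransferase, and Dkc1, the pseudouridine synthase, it had r = 0.22 (adjusted p = 0.80).

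The genes that make and carry these RNAs were steadier than the members. Of other genes in general, 63.3% were above 0 in every tumor, and those with a mean of 1 FPKM or more had a median SD of 0.71. Of 19 symbols listed for snoRNA particle protein genes, 18 were in the table and 17 were above 0 in every tumor, with a median SD of 0.54 on the log2 scale. Fbl averaged 6.36 ± 0.38, Nop56, a core protein of box C/D particles, 5.88 ± 0.49, and Dkc1 3.83 ± 0.70 (SD, n = 23). All 15 microRNA processing genes were in the table and 13 were above 0 in every tumor, with a median SD of 0.51. Drosha averaged 3.90 ± 0.64 and Dicer1 2.07 ± 0.35 (SD, n = 23), whereas Ago3 and Ago4, Argonaute genes, were listed at 0 in 13 and 15 tumors. Of the 16 genes in the table named Snhg or Gas5, 11 were above 0 in every tumor, with a median SD of 0.77. The Snhg and Gas5 genes were thus near other genes in general on both counts. The median SD of each list covers all its genes in the table, with no minimum mean.

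The range in which a member's values lay went with its length. The RefSeq length ran between 45 and 248 bases, with a median of 91. Across members, which are not independent replicates, length and the lowest value above 0 had a Spearman rho of -0.87. The 23 members of 65 to 74 bases had a median lowest value of 8.59 on the log2 scale, the 24 of 75 to 84 bases 7.68, the 34 of 100 to 119 bases 5.02 and the 8 of 140 bases or more 1.34. The median number of tumors above 0 was 4 for 65 to 74 bases and 9 for 120 to 139 bases. For the 8 members of 140 bases or more it was 7. Across members, rho was 0.32 between length and the number of tumors.

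Within a tumor, members of different families but the same length often had the same FPKM. In X437T, Snord100 and Mir6945, both 68 bases in RefSeq, had 370.024 FPKM each, and Snord2, also 68 bases, had 741.038 FPKM, 2 times as much within 0.5%. Snord87 and Mir5121, both 74 bases, had 223.989 FPKM each in the same tumor. In X1310T2, Mir130c, Mir1905 and Mir2861, all of 82 bases, had 339.951 FPKM each. Such ratios were counted over all tumors, for pairs of members that share no word of 30 bases and differ by no more than 6.5 times. Of 304 pairs of 1 RefSeq length, 107 (35.2%) had a ratio within 0.5% of a whole number, of which 61 were equal, 32 stood at 2 and 14 at 3 or more. Of 9077 pairs with lengths over 10 bases apart, 3.31% did. This went with the RefSeq length: of 107 pairs with the same RefSeq but different GENCODE lengths, 51 were at a whole number, against 0 of 162 pairs with the same GENCODE but different RefSeq lengths. A member recurs in many pairs, so these counts are given with no test. The same-length comparison was chosen after the values had been seen.

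**Figure D3:**
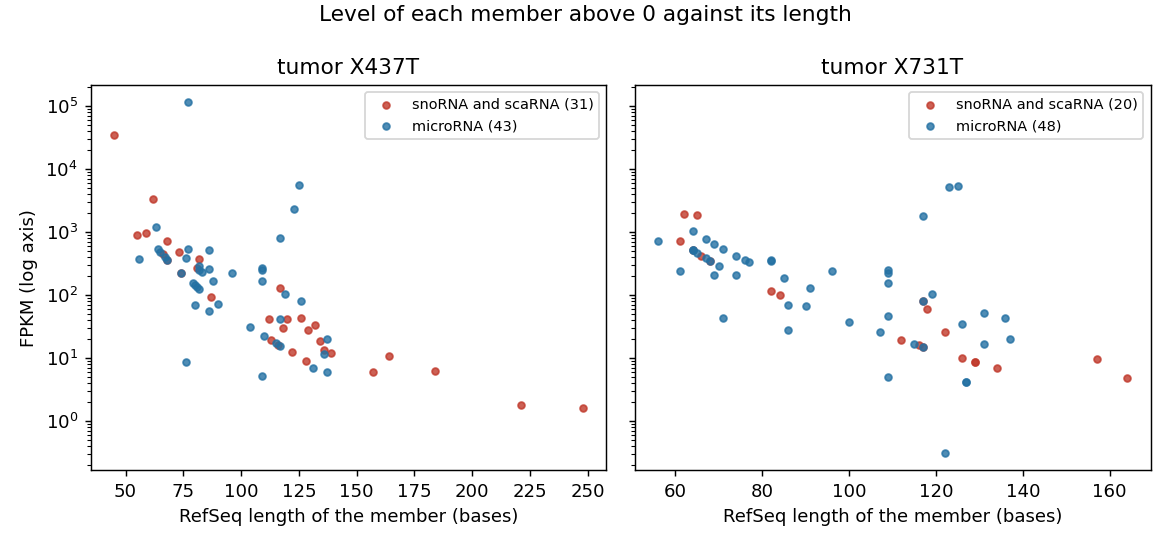
FPKM on a log axis against RefSeq length in bases for each member above 0 in X437T (left) and X731T (right), with 31 and 20 snoRNA and scaRNA genes and 43 and 48 microRNA genes of known length. In both tumors the level falls with length, and the points farthest above others of like length in X437T are Mir3470a, Mir669h, Mir6236 and Mir6240.

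The level of this trend differed between tumors. The median value of members of 75 to 84 bases that were above 0 ran between 7.51 on the log2 scale in X92T and 12.99 in X370T. Tumors with fewer members above 0 had higher medians: r = -0.78 and rho = -0.67 over 23 tumors (permutation p = 2.0e-05 and 0.00057), with r = -0.66 without the 2 tumors farthest from the median. This relation was chosen after the values had been seen. X370T and X147T, with 25 and 24 members above 0, had medians of 12.99 and 12.15, while X437T and X731T, with 74 and 69, had 7.92 and 8.42. The first pair of medians rests on 2 and 3 members of this length, and the second on 14 and 6.

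The members took between 4.73% (X738T) and 72.7% (X149T2) of a tumor's summed FPKM, with a median of 9.40%. They are 150 of 14535 genes. After X149T2 came X153T with 47.3%, X2265T with 31.6%, X147T with 30.4% and X437T with 28.3%. In contrast, X149T1, which shares its title number with X149T2, had 5.27%. A single member, Snord93, made 90.5% of the members' summed FPKM in X149T2 and 90.3% in X153T, while in X147T the highest member, Mir6236, made 33.3%. Without the highest member of each tumor the median was 6.79% and the highest share 22.6%, in X147T. When FPKM was multiplied by RefSeq length, the members took between 0.182% and 5.09% of the summed products, with a median of 0.413%. These are shares of fragments only if FPKM was divided by that full length, which was not tested. In X731T, Mir3082 and Mir7115, of 64 bases, had 518.748 FPKM each. Mir1291 and Snora44, of 117 bases, had 15.4043 FPKM each, a steeper fall than that of length. The weighting by length was added after the values had been seen.

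**Figure D4:**
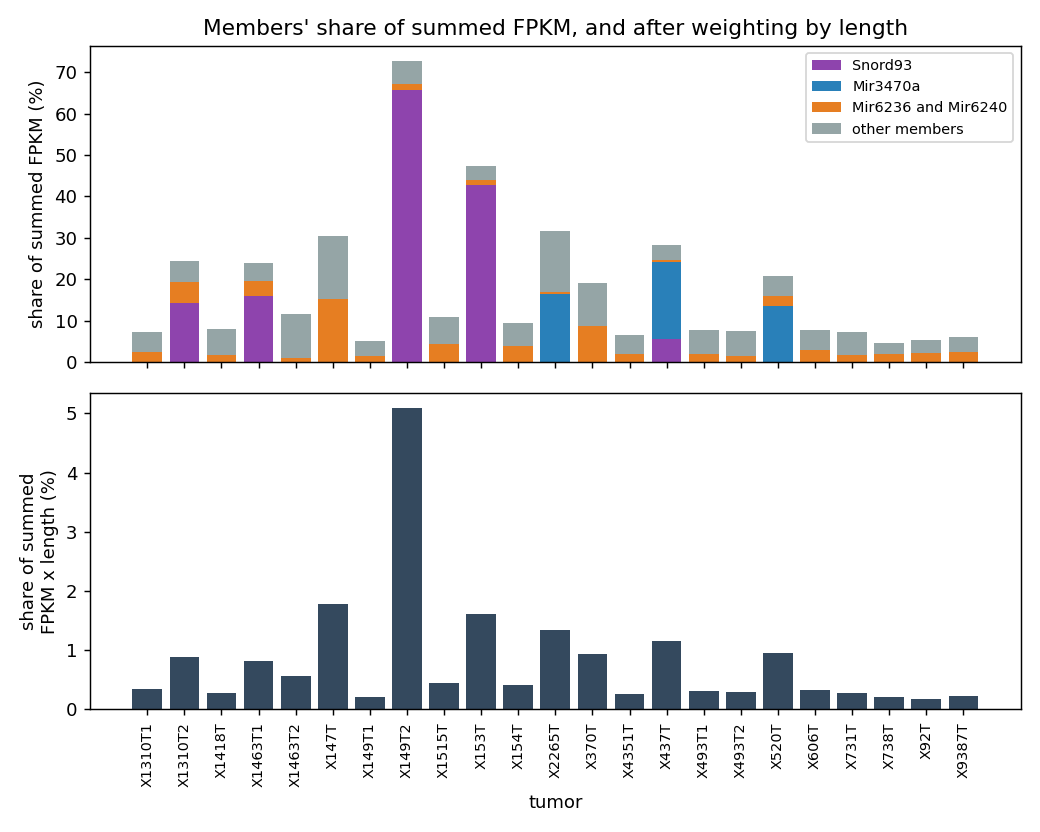
Share of each tumor's summed FPKM taken by members (upper panel, in percent, with Snord93, Mir3470a, Mir6236 with Mir6240, and the other members stacked), and the members' share after FPKM was multiplied by length (lower panel, in percent). Snord93 takes 65.7% in X149T2 and 42.7% in X153T, and after weighting X149T2 stands at 5.09%.

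Snord93, a box C/D snoRNA in an intron of 2700038G22Rik on chromosome 5, had the highest value of all members. It was above 0 in 5 tumors, at 20.07 on the log2 scale in X149T2, 18.20 in X153T, 16.32 in X1463T1, 16.20 in X1310T2 and 15.09 in X437T, and listed at 0 in the other 18. Its share of the summed FPKM was 65.7% in X149T2 and 42.7% in X153T. X1310T1, X1463T2 and X149T1, which share title numbers with 3 of these tumors, were among the 18 at 0. GENCODE gives Snord93 71 bases (23852210 to 23852280, plus strand) and RefSeq 45 bases (23852233 to 23852277), the shortest RefSeq length of all members. The RefSeq part is in capitals.
Snord93: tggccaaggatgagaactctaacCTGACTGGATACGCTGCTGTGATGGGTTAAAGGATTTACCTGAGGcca
Snora61, a box H/ACA snoRNA on chromosome 4 (132310240 to 132310369, plus strand), had the second highest FPKM in X149T2. RefSeq gives it 62 of 130 GENCODE bases, again in capitals.
Snora61: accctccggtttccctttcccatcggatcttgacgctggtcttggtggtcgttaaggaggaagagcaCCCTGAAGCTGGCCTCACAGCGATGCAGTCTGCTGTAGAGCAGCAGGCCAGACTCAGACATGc
Snora61 was above 0 in 12 tumors, with a lowest value of 10.23, a median of 11.20 and a highest value of 14.94 on the log2 scale. Its neighbours in the same host, Snora16a with 136 RefSeq bases and Snora44 with 117, had medians of 4.42 and 5.85 where above 0. For 42 of the 53 snoRNA and scaRNA members RefSeq was shorter than GENCODE, while all 96 microRNA members with a RefSeq length had the same length in both.

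Mir3470a, a microRNA gene of 77 bases on chromosome 6, showed the same kind of pattern. It stood at 16.81 in X437T, 16.65 in X2265T and 16.40 in X520T and was listed at 0 in the other 20 tumors, taking 18.6%, 16.4% and 13.6% of the summed FPKM where present. Mir5620, of 56 bases on chromosome 7, was second in X2265T, where it had 14.97, and lay between 8.58 and 11.08 in the other 9 tumors where it was above 0. Mir6999, Mir762 and Snord69 had their highest values in X147T, at 14.44, 14.13 and 14.80, and Mir669h in X1463T2 at 14.17. Snord69 lies in Gnl3, which encodes the nucleolar protein nucleostemin.

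Mir6236 and Mir6240 were the opposite case, above 0 in all 23 tumors and high throughout. Mir6236, on chromosome 9, ran between 11.17 (X437T) and 16.13 (X147T) with a median of 12.96, and Mir6240, on chromosome 5, between 9.52 (X2265T) and 15.16 (X147T) with a median of 11.31. Mir6236 was the highest member in 13 of 23 tumors. Although on different chromosomes, they rose and fell together, with r = 0.96 and rho = 0.93 over 23 tumors (permutation p = 1e-05, the smallest that 100000 draws allow, and r = 0.92 without the 2 tumors farthest from the median). Mir6236 was 1.47 to 4.67 times as high as Mir6240. Their mature sequences from RefSeq (GRCm38.p6), with the seed in capitals, differ.
Mir6236: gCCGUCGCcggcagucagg
Mir6240: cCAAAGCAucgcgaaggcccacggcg
No word of 30 bases of either gene occurs in a GENCODE transcript of another gene. Rn45s, the 45S ribosomal RNA precursor, lay between 7.16 and 10.28 in these tumors and below Mir6236 in all 23. With Rn45s, Mir6236 had r = 0.22 and Mir6240 r = 0.20 (adjusted p = 0.35 for both, permutation test over 3 relations), and without the 2 tumors farthest from the median 0.43 and 0.39. The sequence of Rn45s was not used here.

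The other members above 0 in every tumor were Mir3473f, Mir692-2 and Mir692-3. Mir692-2 on chromosome 4 and Mir692-3 on chromosome 13 were equal within 0.001 on the log2 scale in 11 of 23 tumors, with medians of 8.92 and 9.06. Mir692-1, of the same mature sequence on chromosome 17, was above 0 in 16 tumors with a median of 4.78. In all, 4 seeds were shared by more than 1 member, among them that of the 3 Mir692 genes and that of Mirlet7d and Mirlet7i.
Mir692: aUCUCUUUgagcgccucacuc
Copies of 1 sequence cannot be told apart by reads that fit all of them, so values of numbered copies are uncertain.

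Several of the microRNA genes most often above 0 share sequence with abundant messages. Of 150 members, 110 share at least 1 word of 30 bases with a GENCODE transcript of another gene. Of the 11 members above 0 in 21 or more tumors, 9 do, a share close to that over all members, the exceptions being Mir6236 and Mir6240. Among the 9, Mir6340 shares words only with 1 gene, on the opposite strand, and Mir3470b and Mir3473f share words with 255 and 323 genes. The 17 members that share words with 10 or more genes had a median of 14 tumors, the 93 with 1 to 9 genes a median of 6 and the 40 with none a median of 4.5. Among the 7 pairs tested below, Mir684-1 and Mir684-2 share the most words with their partner, 98.2% and 87.7% with Sumo2. Mir682 on chromosome 13 (75645046 to 75645141, plus strand), with 55.2% of its words shared, had the highest r of the 7. Of its 96 bases, 95 lie in words shared with Rpl37a, a ribosomal protein gene that is not its host, and these are in capitals.
Mir682: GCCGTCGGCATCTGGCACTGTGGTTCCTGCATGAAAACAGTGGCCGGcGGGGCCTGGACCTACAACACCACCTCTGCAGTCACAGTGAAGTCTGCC
Mir682 was above 0 in 21 tumors, between 6.34 and 11.71 with a median of 8.83. With Rpl37a it had r = 0.62 and rho = 0.65 over these (permutation p = 0.0032 and 0.0020, adjusted p = 0.019 and 0.014 over 7 pairs). Mir692-2 had r = 0.56 with Ftl1, the ferritin light chain gene (adjusted p = 0.019), and both had their highest value in X738T. Mir692-3 had r = 0.50 with Ftl1 and Mir684-1 r = 0.51 with Sumo2, a small protein modifier gene (adjusted p = 0.030 for both), but the rho of Mir684-1 of 0.39 did not pass (adjusted p = 0.11). Mir684-2 with Sumo2, Mir703 with the elongation factor gene Eef1a1 and Mir5098 with Mfap1a did not pass by r (0.44, 0.39 and -0.27, adjusted p = 0.067, 0.088 and 0.28). Pairs were taken by sequence alone, with 25% of the words shared as the minimum, a choice made after the values had been seen. Whether reads of these messages were counted on the members was not tested.

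Each member was then set beside the gene that holds it. Exactly 1 gene of the table held the whole member on the same strand for 100 members, 59 of which overlapped an exon and 41 of which lay in introns. The 100 pairs had 88 hosts. Hosts were present throughout: 82 of the 86 hosts with a mean of 1 FPKM or more were above 0 in every tumor, so most members were listed at 0 while their host was not. Of the members with such a host, 97 were listed at 0 in some tumor. For 66 of these, the host's median was higher in the tumors where the member was above 0. The same share was not computed for genes that are no host, and some hosts recur. The count therefore does not show whether members followed their hosts. A correlation could be had for 21 pairs with 10 or more tumors. Of these, 14 were above 0, with a median r of 0.17 and a range of -0.34 to 0.67. For Mir466q in Tnik too few tumors were left in 1 cluster. With that pair included, the host's r stood at a median percentile of 74.5 among tested genes that are no member (19.9 to 99.8). This rank, taken over all tumors with the member above 0, was not tested. Of the 22 pairs with 10 or more tumors, 2 (9.09%) had r of 0.5 or more, beside 3.72% of the 261655 pairs of these members with any tested gene that is no member.

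Those 2 were also the pairs past the adjusted threshold. Snord22, a box C/D snoRNA on chromosome 19 (8725866 to 8725991, plus strand) in Snhg1, was above 0 in 18 tumors, between 3.46 (X731T) and 8.82 (X2265T) with a median of 5.72. With Snhg1 it had r = 0.66 and rho = 0.80 (permutation p = 0.0032 and 8.0e-05, adjusted p = 0.038 and 0.0017 over 21 pairs), and r = 0.67 without the 2 tumors farthest from the median. Its sequence, with CTGA in capitals, lies whole within a Snhg1 transcript of GENCODE.
Snord22: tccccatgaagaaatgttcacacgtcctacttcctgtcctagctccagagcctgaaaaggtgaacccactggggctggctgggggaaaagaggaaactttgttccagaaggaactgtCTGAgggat
Snora81, a box H/ACA snoRNA in the translation initiation factor gene Eif4a2 on chromosome 16, was above 0 in 17 tumors, between 1.73 and 6.10 with a median of 3.79. It had r = 0.67 with Eif4a2 (permutation p = 0.0036, adjusted p = 0.038) and rho = 0.56, which did not pass (adjusted p = 0.23). Snora81 too lies whole within transcripts of its host, as do the members of 13 of the 21 tested pairs in all. Whether reads of the hosts were counted on these members was not tested. Only 25 tested genes had a higher r with Snora81 than Eif4a2, and 131 a higher r with Snord22 than Snhg1. When 1 tumor was left out, the r of Snord22 lay between 0.61 and 0.73, and the adjusted p exceeded 0.05 without X147T, X606T, X738T or X92T (0.13 at most). The r of Snora81 lay between 0.57 and 0.76, and the call was lost without X1418T, X1463T1, X147T, X149T1, X2265T, X370T, X493T1, X520T, X731T or X9387T (0.22 at most, without X147T). With 1 tumor per title number, neither passed by r, at 0.67 for Snord22 and 0.69 for Snora81, while Snord22 passed by rho (0.77, permutation test, adjusted p = 0.026).

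**Figure D5:**
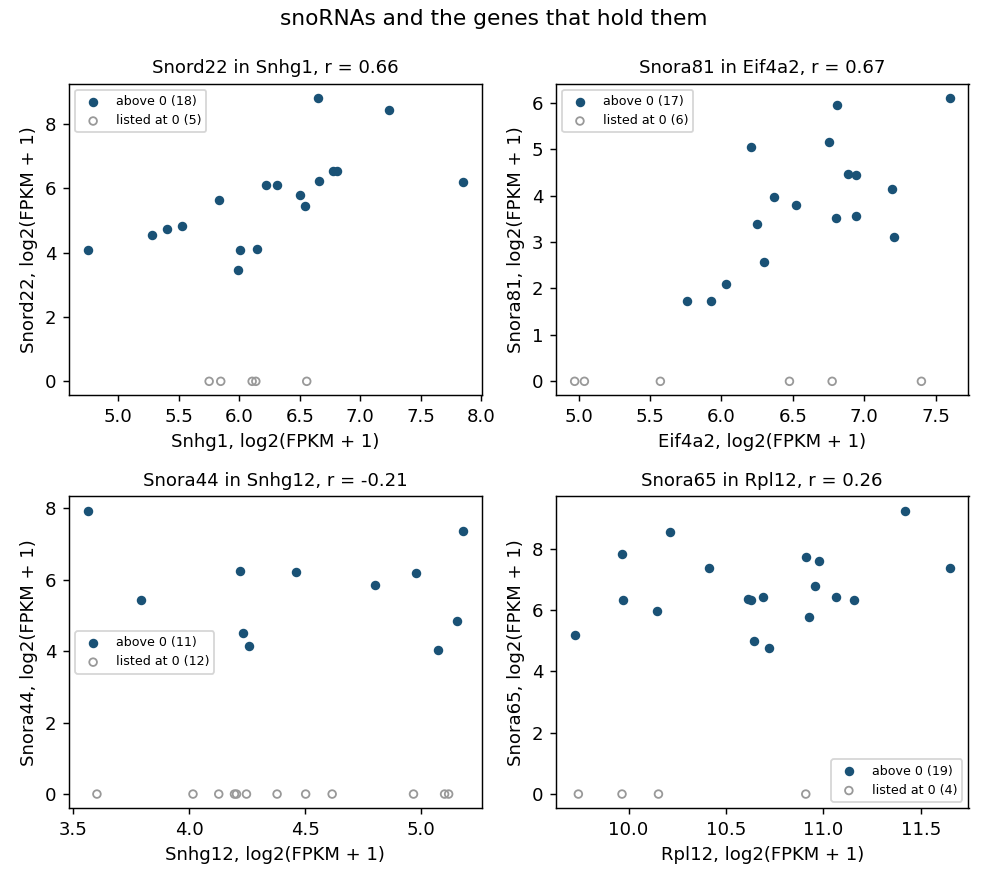
Level of 4 snoRNAs (vertical axes, log2(FPKM + 1)) against the gene that holds them (horizontal axes, log2(FPKM + 1)), with 1 point per tumor, filled where the snoRNA was above 0 and open where it was listed at 0. Snord22 and Snora81 rise with their hosts (r = 0.66 and 0.67 over filled points), whereas Snora44 and Snora65 have r = -0.21 and 0.26, neither past the threshold.

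For the other snoRNAs of noncoding hosts no relation passed the test. Snhg12 holds 3 members and was above 0 in every tumor, between 3.56 and 5.18. Snora44 had r = -0.21 with it over 11 tumors, Snora16a r = -0.13 over 13, and Snora61 r = 0.28 in the largest cluster of 6 tumors (permutation tests, exact for Snora61, adjusted p = 0.79 for each). Snora78 had r = 0.16 with Snhg9 over 14 tumors (adjusted p = 0.79). With the 2 tumors whose snoRNA level lay farthest from its median left out, the sign turned for Snora44 (r = 0.41), Snora61 (r = -0.23) and Snora78 (r = -0.29), and r was -0.14 for Snora16a. Snord47 in Gas5 was above 0 in 4 tumors, between 10.87 and 12.20, while Gas5 lay between 3.49 and 5.98 in all 23. Snord87 in Snhg6 was above 0 in 5 tumors and Mir6516 in Snhg20 in 7, too few for a correlation. In every case the host was above 0 in all 23 tumors apart from Snhg9, which was listed at 0 in 6.

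Pairs in genes of the translation machinery did not pass the test apart from Snora81. Snora65 in Rpl12, above 0 in 19 tumors between 4.75 and 9.25, had r = 0.26, Snora64 in Rps2 r = 0.14, Snora70 in Rpl10 r = 0.12 and Snora52 in Rplp2 r = 0.45 (adjusted p = 0.79 for each). Within the 15 tumors of high Fos, Snora65 had r = 0.56 with Rpl12 over 11 tumors (permutation test, adjusted p = 0.12). With the 2 tumors whose snoRNA level lay farthest from its median left out, the sign turned for Snora64 (r = -0.20) and Snora70 (r = -0.11). Mir3064 in Ddx5, an RNA helicase that takes part in microRNA processing, had r = 0.36 over 16 tumors, and Snora15 in the chaperonin gene Cct6a r = 0.34 over 12. The lowest r were -0.34 for Mir1938 in Ifrd1, followed by -0.21 and -0.13 for Snora44 and Snora16a, -0.11 for Mir3473f in Bcl2, and -0.08 for Mir5133 in Glce. None of these passed the threshold.

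MicroRNA genes well known in mammary tumors gave few values. Of 31 symbols listed, 6 were in the table and none was above 0 in every tumor, beside 5.15% of all 97 microRNA members. The list took Mirlet7 genes from the table itself and holds more than 1 symbol for some genes. The count of 6 of 31 is therefore no rate of detection. Mir27a was above 0 in 9 tumors, up to 9.53 on the log2 scale, Mir23a in 4, up to 10.53, and Mir24-2 and Mirlet7d in 3 each. Mir27a and Mir23a belong to 1 cluster of hairpins, with Mir24-2. Mir18, of the cluster whose host is Mir17hg, was above 0 in X1310T1 alone at 7.67, and Mirlet7i in X731T alone at 7.58. The other members above 0 in a single tumor were Mir1901 in X1310T1 at 9.32, Mir7061 in X731T at 8.46, Mir713 in X1463T1 at 6.26 and Mir8093 in X437T at 4.40. Each of these 6 was listed at 0 in the other 22 tumors.

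Tumors that share a title number had somewhat more members in common. The Jaccard index, the number of members above 0 in both tumors over the number above 0 in either, averaged 0.394 ± 0.052 over the 4 pairs with a shared number and 0.331 ± 0.068 over the 249 other pairs (SD). The difference of 0.063 had a two-sided permutation p of 0.047. It missed the threshold when likeness was measured by the phi coefficient (p = 0.073), when 1 FPKM counted as present (p = 0.090), and within the 15 tumors of high Fos (p = 0.085). Fos, an immediate early gene, fell into 2 clusters, at 8.16 to 9.99 in these 15 tumors and 3.39 to 5.37 in the other 8. X493T1 and X493T2 shared 38 of 82 members, and X1310T1 and X1310T2 27 of 77. The labels do not say what a title number marks.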

How the data were processed

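RNA of 23 tumors was sequenced by the authors. Per the submitters' processing notes, reads were trimmed with Trimmomatic 0.35, aligned to mm10 with TopHat2 2.0.13 and quantified with Cufflinks 2.2.1. The study's methods give a different TopHat version, and no source used here names the annotation. The values are log2(FPKM + 1) as deposited by the authors, with no counts, so depth and counting intervals are unknown. FPKM was recovered from them with the pseudocount of 1. Replicates have no labelled origin, and no column of per-sample values was left unused.

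Symbols were matched to GENCODE M21 (13982 directly, 446 through an older symbol, 107 not). mm10 and GRCm38 name the same assembly. Positions count from 1. Tested genes had a mean of 1 FPKM or more. A host is a gene of the table that holds the whole member on the same strand, and its relation to the member was computed over tumors with the member above 0, at least 10. A measure with a gap over 25% of its range and at least 3 tumors on each side was used within the larger cluster. A score is the mean z-scored log2 value of a list. Permutation tests were two-sided with 100000 draws, or exact for up to 9 values, adjusted by the Benjamini-Hochberg method, with a threshold of 0.05. Shared sequence was sought as words of 30 bases in GENCODE transcripts on either strand. Relations were tested on simulated data first. Python 3.11.15 with numpy 2.4.6, pandas 2.3.3 and matplotlib 3.10.9 were used.

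Members and lists were chosen with earlier results of these data known. Named members are the 10 of highest FPKM, those above 0 in every tumor or in 1 alone, the top 2 of the 3 tumors of highest share, all with Snhg or Gas5 hosts, host pairs past the threshold or with the 5 highest or lowest r, and up to 6 of each list. Members named for equal levels, shared sequence or boxes were chosen after their values were seen. Alternatives were other thresholds for present, a pseudocount of 0.1, no filter, other sets of tumors, Spearman rho and the phi coefficient.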

Additional observations from a re-analysis of the deposited data

How the results depend on the processing

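The number of members per tumor, the number above 0 in every tumor and the number with an SD of 1 or more stayed within 1.5 times or 1 SD under the alternatives run. The highest share of summed FPKM was 22.6% without the highest member of each tumor, 5.09% after multiplication by RefSeq length and 47.3% without X149T2. The number of host pairs past the adjusted threshold by r was 0 of 14 with 1 tumor per title number and 0 of 8 within the 15 tumors of high Fos, where 2 and 1 had an unadjusted permutation p under 0.05, against 2 of 21. By rho it was 1, Snord22 with Snhg1, over all tumors and in both of these settings (adjusted p = 0.026 and 0.023, permutation test). At high Fos, 5 of the 8 pairs, those of Mir1954, Snora28, Snora65, Snora81 and Snord22, had r of 0.5 or more. Snora28 rested on 6 tumors, and Mir5098 with Rest had r = -0.60. The share of other genes with r of 0.5 or more was not computed in this setting. The count therefore does not show whether members followed their hosts there. The difference in likeness of tumors sharing a title number kept its sign but missed the threshold by the phi coefficient (0.074), with 1 FPKM as present (0.054) and at high Fos (0.058).

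Host pairs past no threshold that changed sign were Mir5133 with Glce (0.054 with 1 tumor per title number, 0.055 by rho), Mir5098 with Rest (0.15 and 0.094), Snora64 with Rps2 (-0.07 with 1 tumor per title number), Mir3473f with Bcl2 (0.014 at high Fos) and Snora61 with Snhg12 (-0.16 over all 12 tumors with Snora61 above 0). The same held for the number of members with the Snhg score (0.048 with 1 tumor per title number, 0.11 by rho). The members' summed FPKM changed sign with the number of other genes above 0 (-0.061 with 1 tumor per title number), with Fos (-0.16 with 1 tumor per title number, -0.11 by rho) and with the particle protein score (-0.019 at high Fos). The causes were not tested. With values listed at 0 included, the gap rule set those tumors apart as a cluster. No gene named as mitochondrial was in the table, so the total without such genes was not run. No paired analysis was possible because the labels give 1 group. FPKM keeps no depth, so a value of 0 sets no upper limit on a member.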

Other observations

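The other short genes of the table behaved in more than 1 way. Rnu73b, a snoRNA gene outside the naming rule with a longest transcript of 71 bases, was above 0 in 5 tumors, between 8.43 and 10.52 on the log2 scale. Rnu11 and Rnu12, small nuclear RNAs of the minor spliceosome, were above 0 in 4 and 11 tumors. Rmrp, the RNA of RNase MRP, was above 0 in 19 tumors, up to 4.84, and Terc, the telomerase RNA, in 6, up to 1.37. In contrast, 4 ribosomal RNA genes of 119 bases, Gm22291, Gm23284, Gm25018 and Gm25212, were above 0 in all 23 tumors, and each had its lowest value of 1.65 and its highest in X149T2, at 7.44, 7.01, 6.74 and 7.24. X149T2 was also the tumor with the highest member share.

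Markers of cell types that a tumor piece can hold varied widely. The summed level of 3 fibroblast genes ran between 62.4 FPKM in X370T and 1891 FPKM in X92T, and that of 3 macrophage genes between 1.66 FPKM in X147T and 507 FPKM in X738T. X147T, with the fewest members above 0, was listed at 0 for the endothelial genes Pecam1 and Cdh5 and for the erythroid genes Hbb-b1 and Hba-a1. Of 2 T cell genes, Cd3e alone was in the table, listed at 0 in 19 tumors. None of the B cell and adipocyte markers was in the table, and of 2 muscle genes Acta1 alone was, listed at 0 in X149T2. The part of these cells in the pattern of the members was not tested, and fewer cells of a type and less RNA per cell cannot be told apart in bulk tissue.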
